A study of Caenorhabditis elegans with 6 samples.

Results

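The aminoacyl-tRNA synthetase genes of the nematode Caenorhabditis elegans were measured in whole worms treated with terahertz radiation and in control worms. They were taken as all rows of the deposited table whose gene name is 1 amino acid letter followed by ars, a hyphen and 1 digit. That gave 32 genes of 46950 rows, of which 20 have names ending in -1, 11 in -2 and 1, fars-3, in -3. Together they cover all 20 amino acids, and none of the 11 gene names that the table stores as dates belongs to a synthetase. The study sequenced polyadenylated RNA of 6 libraries. Worms exposed to terahertz radiation, the band between microwaves and infrared light and here 0.26 THz by the series title, gave 3 of them (THz 1 to 3), and control worms gave the other 3 (Control 1 to 3). The labels name no strain, age, stage, power or length of exposure. They do not tie the 3 libraries of a group to separate cultures either, and p-values then reflect library spread that may be technical only.

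Aminoacyl-tRNA synthetases join each amino acid to its transfer RNA, the step that makes the genetic code readable by the ribosome. They fall into 2 unrelated classes by the fold of the catalytic domain, and 15 of the genes belong to class I and 17 to class II. Mitochondria translate their own few mRNAs and need charged tRNAs of their own, so animal nuclear genomes encode a second, mitochondrial enzyme for many amino acids, while some genes serve both compartments, as those for glycine and lysine do in humans. In yeast and mammals uncharged tRNA activates the kinase GCN2, which slows translation initiation and, in mammals, raises synthetase transcripts through the factor ATF4.

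Depth recovered from the values lay between 19079441 and 21977419 counted reads per library. The THz libraries resembled each other closely (Pearson correlations of log2(FPKM + 1) across genes from 0.989 to 0.992), whereas those among the control libraries ran from 0.946, between Control 2 and Control 3, to 0.984. Every pair of libraries differed beyond sampling noise, with a chi-square of at least 4.55 for each degree of freedom. Markers of the germline, muscle, neurons, intestine, sperm and epidermis were detected, but 2 sperm markers (spe-38 and ssp-9) were at 0 in at least 1 library. These 2, the sperm marker spe-9 and the moulting marker bli-1 did not reach 1 FPKM in 3 libraries. Results are therefore given with and without the control libraries that stand apart.

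All 32 genes were well expressed. Levels are in FPKM, which scales reads by gene length and library depth, so that genes of different length can be compared. The mean over the 6 libraries ran from 14.2 FPKM for ears-2 to 243 FPKM for kars-1, a 17.1-fold range. Each value rested on at least 405 recovered reads and at most 10887, for which counting error alone is 4.97% and 0.958%. The recovered reads are whole numbers for 18 of the 32 genes and approximate for the others, kars-1 with the highest count among them. The genes lie on chromosomes I (9 genes), II (5), III (6), IV (8) and V (4), and none on X.

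The lysine enzyme gene kars-1 (WBGene00002238, chromosome II, 7070183 to 7072415 in build WBcel235) stood alone at the top. It measured 255, 252 and 258 FPKM in the THz libraries, against 233, 234 and 226 FPKM in the control libraries. A group of 3 came next, tars-1, nars-1 and dars-1, which charge tRNAs with threonine, asparagine and aspartate. The tars-1 gene (WBGene00006617, chromosome II, 11691326 to 11695657) measured 146, 147 and 146 FPKM after THz, against 124, 146 and 130 FPKM in controls. For nars-1 (WBGene00003815, chromosome I, 7088030 to 7090062) the values were 138, 132 and 151 FPKM after THz, against 134, 139 and 124 FPKM in controls. Those of dars-1 (WBGene00001094, chromosome III, 9489176 to 9491236) were 134, 139 and 137 FPKM after THz, against 124, 136 and 129 FPKM in controls. The library values of these 3 genes overlapped each other, while kars-1 lay above all of them in every library, its lowest value being 226 FPKM against a highest of 151 FPKM among the others. The dars-1 locus overlaps the neuropeptide gene nlp-36 and that of tars-1 overlaps kel-1, and the library kit keeps no strand, so reads there may not be assigned to 1 gene. In all, 15 of the 32 loci overlap another protein-coding gene in the annotation.

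At the other end, 6 genes averaged under 20 FPKM. Of these, 4 have names ending in -2, ears-2, lars-2, dars-2 and nars-2, and the others are aars-1 and vars-1. The lowest was ears-2, for glutamate (WBGene00001338, chromosome IV, 388686 to 390468, overlapping ssna-1), with 14.5, 13.3 and 14.2 FPKM after THz, against 12.7, 16.9 and 13.7 FPKM in controls. The leucine gene lars-2 (WBGene00003074, chromosome I, 7457153 to 7460756) measured 15.7, 14.5 and 14.6 FPKM after THz, against 11.2, 17.7 and 14.1 FPKM in controls. For both genes the THz values lay inside the range of the controls, whose lowest value came from Control 1 and highest from Control 2. The valine gene vars-1 (WBGene00006935, chromosome V, 8031411 to 8035014) followed the same order of extremes, with 14.7, 15.1 and 14.7 FPKM after THz, against 12.5, 16.9 and 16.1 FPKM in controls. The order of all genes by level is shown in the plot of FPKM by gene.

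**Figure D1:**
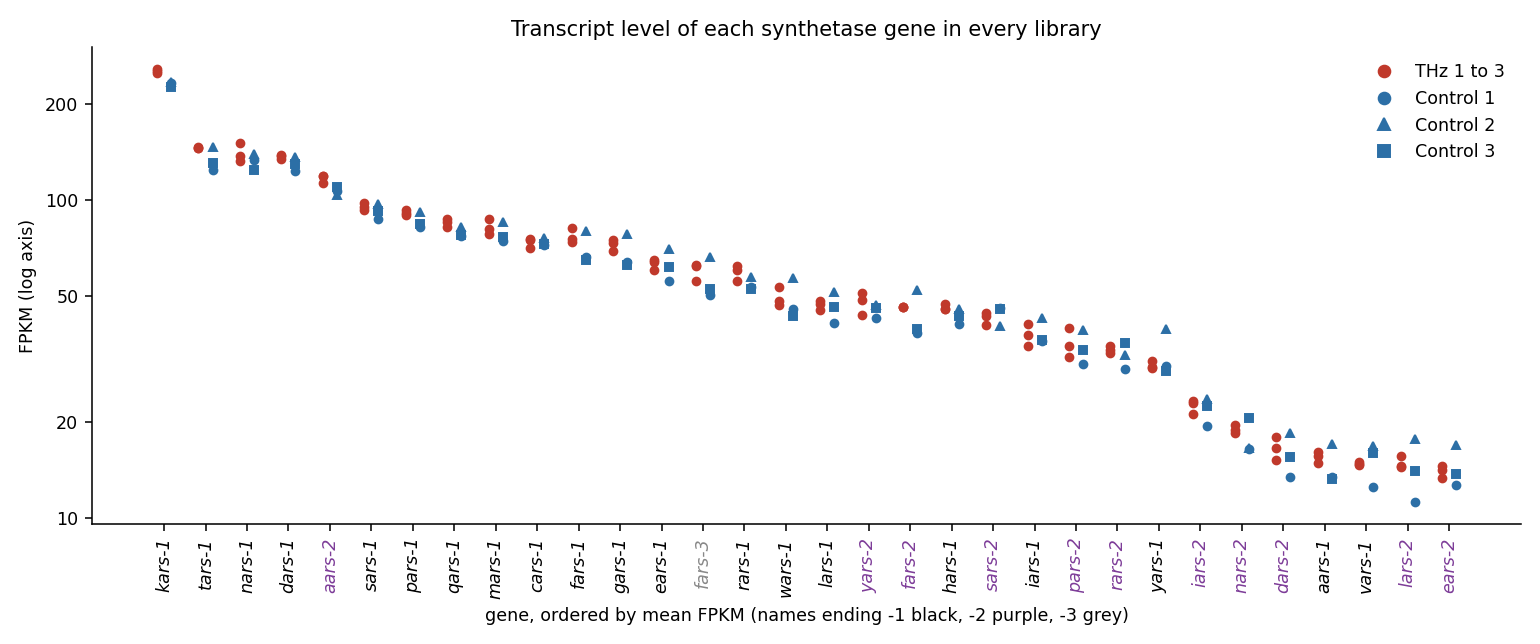
FPKM (log axis) of each of the 32 genes in every library, ordered by mean, with the THz libraries left of the control libraries and Control 1, 2 and 3 as separate symbols. kars-1 is highest with a mean of 243 FPKM, and most of the genes under 20 FPKM have names ending in -2, with aars-1 and vars-1 among them.

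The other genes lay between these ends, apart from nars-2, and are given here as means ± SD over 3 libraries a group. The remaining -1 genes of class II differed in level, with serine and proline above glycine and histidine. The serine gene sars-1 averaged 95.5 ± 2.39 FPKM after THz and 92.1 ± 4.90 FPKM in controls, and the proline gene pars-1 averaged 91.1 ± 1.68 FPKM after THz and 85.97 ± 5.10 FPKM in controls. The glycine gene gars-1, whose description also names the synthesis of the signalling nucleotide diadenosine tetraphosphate, had 72.6 ± 2.95 FPKM after THz and 68.2 ± 8.72 FPKM in controls. For the histidine gene hars-1 the means were 45.9 ± 0.926 FPKM after THz and 43.1 ± 2.31 FPKM in controls. In each of these 4 genes the groups overlapped.

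Among the -1 genes of class I, the methionine gene mars-1, whose enzyme also charges the initiator tRNA, averaged 82.2 ± 4.55 FPKM after THz and 78.7 ± 5.70 FPKM in controls. The cysteine gene cars-1 was nearly level between the groups, at 73.8 ± 2.54 FPKM after THz and 73.7 ± 2.10 FPKM in controls. For the glutamate gene ears-1 the means were 62.96 ± 2.36 FPKM after THz and 62.4 ± 7.31 FPKM in controls, and for the arginine gene rars-1 they were 59.2 ± 3.34 FPKM after THz and 54.4 ± 2.56 FPKM in controls. The genes for tryptophan, leucine and isoleucine were lower in level. The wars-1 gene averaged 49.4 ± 3.55 FPKM after THz and 48.5 ± 7.38 FPKM in controls, lars-1 averaged 46.7 ± 1.54 FPKM after THz and 46.2 ± 5.13 FPKM in controls, and iars-1 averaged 37.7 ± 3.06 FPKM after THz and 38.3 ± 3.79 FPKM in controls. All 7 had overlapping groups.

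Of the -2 genes, 6 not yet given by value lay toward the lower end of the levels, nars-2 being 1 of the genes under 20 FPKM. The tyrosine gene yars-2 averaged 47.8 ± 3.83 FPKM after THz and 44.9 ± 2.13 FPKM in controls, and the serine gene sars-2 averaged 42.6 ± 1.88 FPKM after THz and 43.8 ± 3.13 FPKM in controls. For pars-2 the means were 35.4 ± 3.71 FPKM after THz and 34.4 ± 4.23 FPKM in controls, and for rars-2 they were 33.9 ± 0.805 FPKM after THz and 32.5 ± 3.12 FPKM in controls. The lowest of this group were iars-2, at 22.5 ± 1.06 FPKM after THz and 21.8 ± 2.19 FPKM in controls, and nars-2, at 18.99 ± 0.547 FPKM after THz and 17.9 ± 2.39 FPKM in controls. Here too the groups overlapped for every gene.

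The number in the name is often read as the compartment, -1 for the cytosol and -2 for mitochondria. The table's own descriptions name a compartment for 9 of the genes and none for the other 23. Of the 8 described as cytoplasmic, 7 have names ending in -1 and the other is aars-2, while the only gene described as mitochondrial is aars-1. For alanine the number thus runs the other way, and the levels did too. The aars-1 gene (WBGene00000196, chromosome II, 11460215 to 11464129) measured 14.9, 15.7 and 16.1 FPKM after THz, against 13.5, 17.1 and 13.3 FPKM in controls. Its counterpart aars-2 (WBGene00000197, chromosome I, 3983171 to 3986915) measured 113, 119 and 119 FPKM after THz, against 106, 104 and 110 FPKM in controls. The genes are therefore called here by their numbers, not by compartment.

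Both numbers exist for 11 amino acids, and the -1 gene had the higher level for 9 of them. The largest ratio was that of aspartate, where dars-1 was 8.26 times dars-2 on average. The dars-2 gene (WBGene00001095, chromosome V, 12048745 to 12052182) measured 17.9, 16.6 and 15.3 FPKM after THz, against 13.4, 18.5 and 15.5 FPKM in controls. Asparagine came close with a 7.40-fold ratio, followed by glutamate (4.41) and leucine (3.20), whereas proline (2.54), serine (2.17), isoleucine (1.71), arginine (1.71) and phenylalanine (1.65) had -2 genes at a larger fraction of the -1 level. The exceptions were alanine, where aars-2 was 7.42 times aars-1, and tyrosine, where yars-2 was 1.48 times yars-1 and the description names no compartment. Valine has no vars-2 in the table, but glp-4, described as a valine tRNA ligase and known for its requirement in germline proliferation, measured 44.5, 48.9 and 44.7 FPKM after THz, against 39.6, 55.9 and 40.2 FPKM in controls. That is 3.04 times vars-1. For the other 8 amino acids, among them lysine, glycine and glutamine, only a -1 name was found.

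These ratios did not separate THz from control worms. In none of the 11 pairs did the 3 THz libraries lie all above or all below the control libraries. The log2 ratio averaged over the pairs was 0.96, 1.01 and 1.03 in the THz libraries, against 1.06, 1.04 and 0.92 in the control libraries. With alanine taken by its description it was 1.49, 1.54 and 1.55 after THz, against 1.60, 1.52 and 1.47 in controls. The mean ratio was 1.00 ± 0.04 after THz and 1.01 ± 0.08 in controls (log2, SD, n = 3 each), so their difference was smaller than the spread within either group. The largest shift was that of tyrosine, with a log2 ratio of -0.66 ± 0.09 after THz and -0.47 ± 0.21 in controls, where Control 2 was highest at -0.25.

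**Figure D2:**
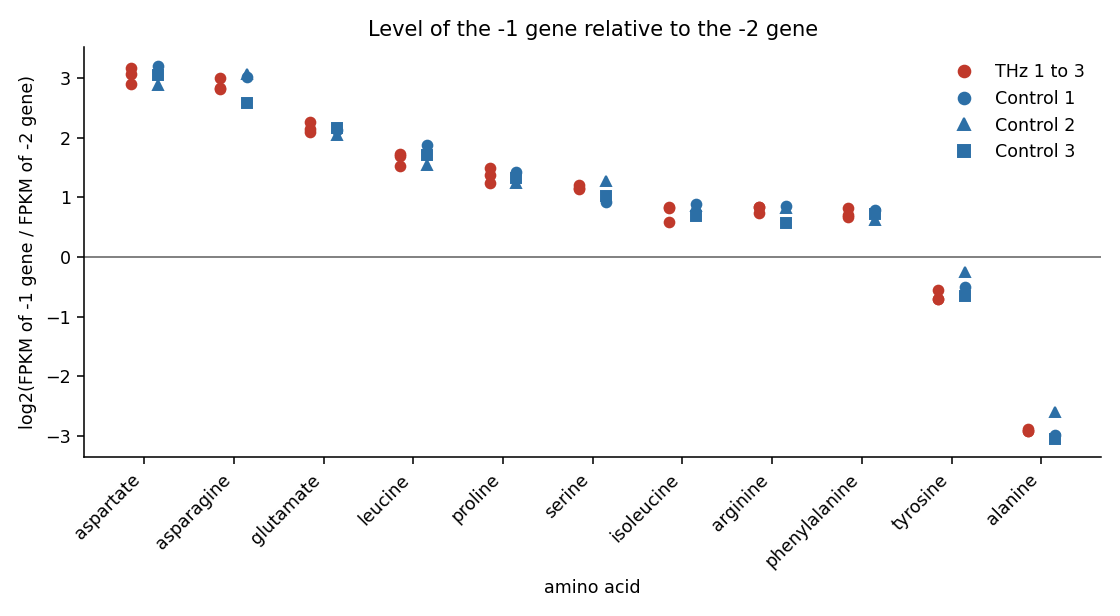
Log2 ratio of the FPKM of the -1 gene to that of the -2 gene for the 11 amino acids with both, in every library, with the THz libraries left of the control libraries. The ratio is above 0 for 9 amino acids and below 0 for tyrosine and alanine, and the groups overlap in all 11.

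Phenylalanyl-tRNA synthetase of the cytosol is a tetramer of alpha and beta subunits, and fars-3 is described as the beta subunit. The log2 ratio of fars-1 to fars-3 was 0.44, 0.39 and 0.25 after THz, against 0.40, 0.27 and 0.31 in controls, which overlap. The fars-1 gene averaged 76.8 ± 4.01 FPKM after THz and 70.3 ± 8.27 FPKM in controls, and fars-3 averaged 59.9 ± 3.74 FPKM after THz and 56.3 ± 8.75 FPKM in controls (SD, n = 3 each). The fars-1 level was thus 1.27 times that of fars-3 on average. The phenylalanine gene fars-2, chosen after its values were seen, measured 46.2 FPKM in each of the 3 THz libraries, against 38.3, 52.0 and 39.4 FPKM in controls.

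Whether the exposure changed the level of these transcripts was asked by setting THz against control worms. No synthetase gene passed the test. With limma on log2(FPKM + 1), adjusted over 12174 genes, 0 of the 32 had an adjusted p under 0.05, where the background over all genes was also 0%, and the smallest among the 32 was 0.827. At an unadjusted p under 0.05 there were 0 of the 32, against 5.86% of all genes. Voom on recovered reads called 0 of the 32 as well, also with 0 at an unadjusted p under 0.05. The log2 differences, THz minus Control, were small, from -0.10 for yars-1 to 0.14 for kars-1. Their 95% intervals were 0.15 to 0.40 wide on each side, and the outermost bounds over the 32 genes were -0.40 and 0.47.

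The differences leaned one way in number. The mean was higher after THz for 27 of the 32 genes (84.4%), against 50.5% of all genes tested and 66.1% of the 5798 genes whose mean FPKM lay in the same range. The median difference was 0.08 on the log2 scale, which is 5.47% on the scale of FPKM + 1, against 0.00 for all genes and 0.05 for those in the same range of level. In RNA from whole worms, a change in the number of cells of a type and a change in RNA per cell cannot be told apart. Germline markers also had higher means after THz, with mean deviations of 0.10, 0.06 and 0.09 after THz, against -0.13, -0.08 and -0.04 in controls. Control 2 lay below every THz library for them, but was the highest library for the synthetases, at 0.09. A link between the lists was not tested. Of the -1 genes 17 of 20 were higher, with a median of 0.08, and of the -2 genes 9 of 11, with a median of 0.07. In class II 16 of 17 were higher, with a median of 0.09, and in class I 11 of 15, with a median of 0.03, a difference between the classes that was not tested. The 5 genes with a lower mean after THz were yars-1, sars-2, ears-2, iars-1 and vars-1, with differences from -0.10 to -0.02.

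The groups did not overlap in 3 genes, kars-1, aars-2 and qars-1, all with THz above, and in 0 genes was THz below. That is 9.38% of the 32, against a background of 6.44% of all genes above and 7.33% below, and 9.9% above among the genes in the same range of level. The difference for kars-1 was 0.14 ± 0.07 (log2, SE), from means of 255 ± 3.21 FPKM after THz and 231 ± 4.25 FPKM in controls (SD, n = 3 each), with a limma adjusted p of 0.827. For aars-2 it was 0.13 ± 0.07, from 117 ± 3.59 FPKM after THz and 107 ± 3.08 FPKM in controls, with the same adjusted p. The glutamine gene qars-1 (WBGene00001336, chromosome IV, 15008503 to 15013183) measured 87.3, 85.3 and 82.2 FPKM after THz, against 77.2, 82.1 and 77.4 FPKM in controls, a difference of 0.11 ± 0.07 (adjusted p = 0.828). Its highest control, Control 2, lay just under the lowest THz library. Leaving out 1 library at a time kept these 3 differences between 0.08 and 0.16.

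**Figure D3:**
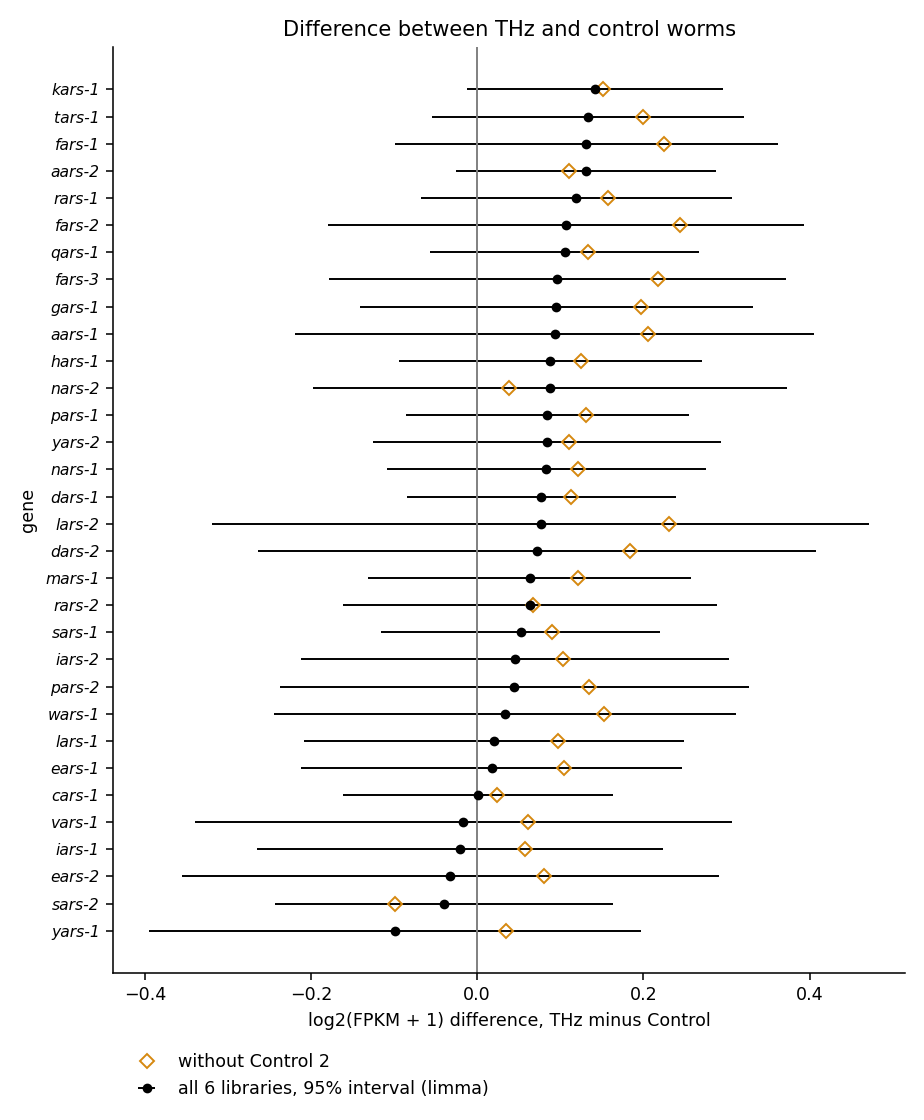
Difference in log2(FPKM + 1), THz minus Control, for each gene, ordered by size. Filled circles with bars are the estimates and 95% intervals from all 6 libraries (limma), which all include 0, and open diamonds are the differences without Control 2, which lie above 0 for 31 of the 32 genes.

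For 29 of the 32 genes the range of the control libraries was larger than the difference between the groups on the log2 scale, and the exceptions were kars-1, aars-2 and qars-1. That count was not made over all genes, so it cannot be read as particular to the synthetases. Control 2 was the highest of the 3 controls for 28 of the 32 genes (87.5%), against 39.9% of all genes and 43.5% of those in the same range of level. The exceptions were aars-2, nars-2, rars-2 and sars-2. Control 2 exceeded the mean of Control 1 and Control 3 by a median of 0.19 on the log2 scale, against 0.01 over all genes and 0.04 over those in the same range of level. The excess reached 0.46 for lars-2, 0.41 for fars-2 and 0.40 for yars-1, and was 0.03 for kars-1. The yars-1 gene, singled out after its values were seen, measured 29.7, 31.2 and 29.8 FPKM after THz, against 30.1, 39.3 and 28.9 FPKM in controls, so that its lower mean after THz rests on Control 2. Control 1 was the lowest of the 6 libraries for 20 of the 32 genes (62.5%), against 25.0% of all genes, and for 9 of the 11 genes in -2.

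The mean deviation of the 32 genes from their own means was 0.01, 0.05 and 0.02 in the THz libraries, against -0.13 in Control 1, 0.09 in Control 2 and -0.05 in Control 3. The THz libraries thus lay between Control 2 and the other controls. For 16 of the 32 genes (50%) all 3 THz values lay inside the range of the controls, against 41.7% of all genes. The coefficient of variation was smaller among the THz libraries for 27 of the 32 genes, with medians of 3.78% after THz and 9.96% in controls, but the same held for 78.3% of all genes and for 85.9% of those in the same range of level. The tightest were fars-2, with 0.0285%, and tars-1, with 0.221% after THz, against 17.6% and 8.62% in controls. Counting error alone is larger than that for either gene, so differences this small are below what the reads can resolve.

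**Figure D4:**
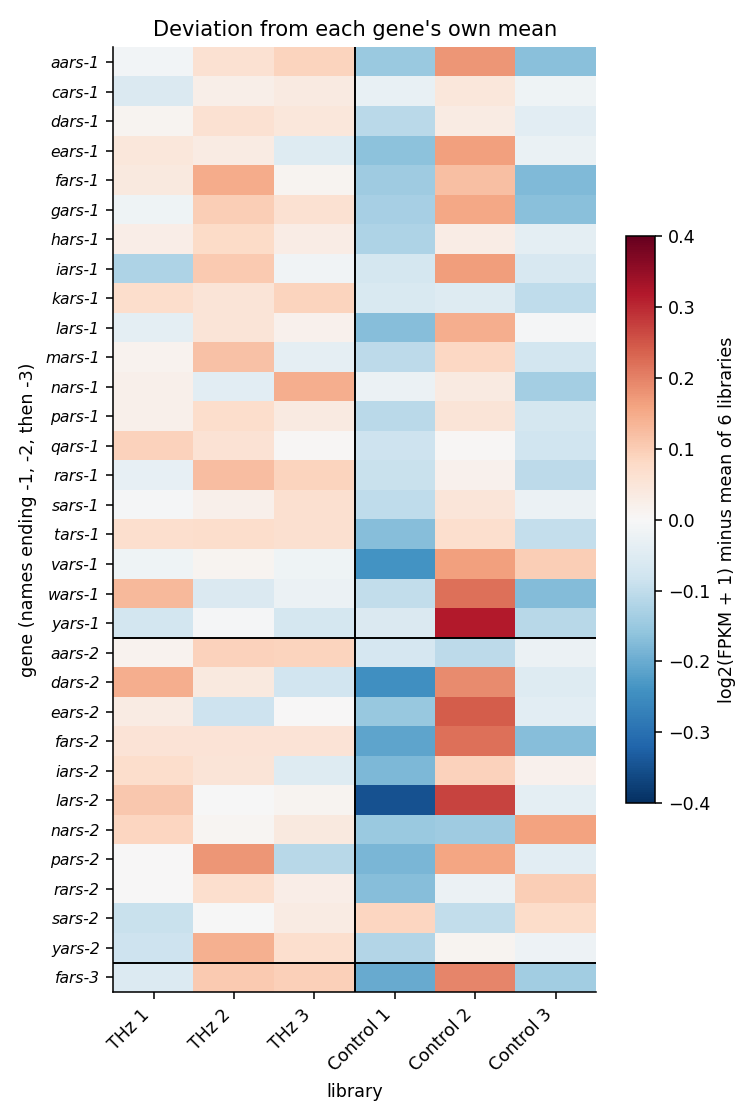
Deviation of each gene from its own mean over the 6 libraries, in log2(FPKM + 1), with the THz libraries left of the line and the control libraries right of it, and names ending in -1, -2 and -3 from top to bottom. Most genes are above their mean in Control 2 and below it in Control 1, and the THz columns are paler.

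Single control libraries therefore set the size of the lean. Without Control 2 the mean was higher after THz for 31 of the 32 genes, with a median difference of 0.12, where 51.6% of all genes were higher. All 3 THz libraries then lay above the other controls in 17 genes and below in 1, sars-2, against 16.8% and 19.1% of all genes. The limma test still called 0 of the 32, against 1.92% of all genes, the smallest adjusted p being 0.158, and 5 had an unadjusted p under 0.05, fars-1, fars-2, fars-3, gars-1 and tars-1, against 17.6% of all genes. Without Control 1 only 18 of the 32 were higher after THz, with a median of 0.02 over all 32 and of -0.01 over the -2 genes, where 44.8% of all genes were higher, with a median of -0.02. Leaving out Control 3 changed the count little, with 26 of the 32 higher and a median of 0.05, where 52.3% of all genes were higher. Weights estimated for each library came to 0.180 for Control 2, 0.293 for Control 3 and 4.295 for Control 1, and to 1.316, 0.9345 and 3.591 for THz 1 to 3. The control side then rested mostly on Control 1, the lowest of the 6 libraries for 20 of the 32 genes. With these weights limma called 10 of the 32, all higher after THz. They were aars-2, dars-1, fars-1, fars-2, fars-3, gars-1, kars-1, lars-2, pars-1 and tars-1, with differences from 0.14 to 0.33. In that fit 13.7% of all genes were called higher and 25.4% in either direction, and an unadjusted p under 0.05 was reached by 20 of the 32 and by 41.9% of all genes. When libraries were scaled to a common median, 31 of the 32 were higher after THz, against 62.8% of all genes, and 5 had an unadjusted p under 0.05, against 12.4%, with 0 called.

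Other genes of translation were taken from lists of pathway genes. Their counts stand beside 50.5% of all genes higher after THz, with a median difference of 0.00. Among genes in the synthetases' range of level 66.1% were higher, with a median of 0.05. The cytosolic elongation factors, which bring charged tRNAs to the ribosome and move it along, had 5 of 6 measured members higher after THz, with a median difference of 0.10. Their mean deviation was 0.01, 0.03 and 0.04 after THz, against 0.10 in Control 1, -0.13 in Control 2 and -0.05 in Control 3, so that Control 2 was the lowest library for them and the highest for the synthetases. The mitochondrial translation factors (4 of 5 higher, median 0.05) had Control 2 highest at 0.13, against -0.11 and -0.09 in the other controls. None of these genes passed the test.

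Genes of amino acid starvation signalling, with the GCN2 pathway and the subunits of the initiation factors eIF2 and eIF2B, were higher after THz in 11 of 14 cases, with a median of 0.07 and 0 called. Their deviations ran as those of the synthetases, at 0.01, 0.05 and 0.03 after THz, against -0.13 in Control 1, 0.07 in Control 2 and -0.03 in Control 3. The transcription factor gene atf-4 averaged 37.9 ± 1.67 FPKM after THz and 41.1 ± 4.13 FPKM in controls (SD, n = 3 each), with overlapping libraries. The eIF2B epsilon gene eif-2Bepsilon averaged 19.3 ± 1.24 FPKM after THz and 16.6 ± 0.995 FPKM in controls (adjusted p = 0.827, limma). It was the 1 member of the 14 with all THz libraries above the controls. That lies close to the share over all genes, 6.44%, and over those in the synthetases' range of level, 9.9%. Of 21 genes of tRNA processing and modification 13 were higher, with a median of 0.04 and 0 called. For this list and that of starvation signalling the same shares apply, 50.5% of all genes and 66.1% in the synthetases' range of level. Among them the tRNA methyltransferase gene nsun-2 averaged 68.8 ± 1.42 FPKM after THz and 62.9 ± 2.41 FPKM in controls, and gro-1, which encodes a tRNA isopentenyl transferase, 12.3 ± 0.782 FPKM after THz and 15.3 ± 2.72 FPKM in controls (adjusted p = 0.827 for both, limma).

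**Figure D5:**
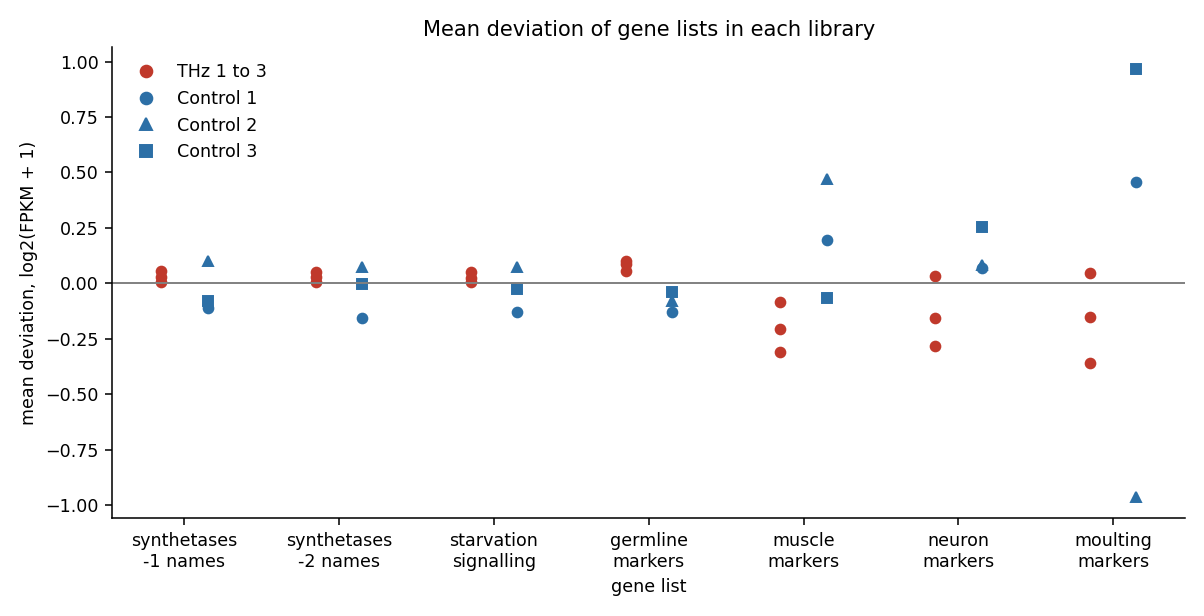
Mean deviation of each gene list from its members' own means, in log2(FPKM + 1), by library, with the THz libraries left of the control libraries. For the synthetases and starvation signalling the THz libraries lie between Control 2 above and Control 1 below, for germline markers the THz libraries lie above all controls, and for moulting markers Control 2 and Control 3 lie at opposite ends.

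Markers of tissues were taken in the same way. All 12 germline markers were higher after THz, 8 of them with every THz library above every control. Over all genes 6.44% had THz all above and 7.33% all below. The summed level of the germline markers was 4336, 4153 and 4280 FPKM after THz, against 3659, 3814 and 3852 FPKM in controls. All 10 muscle markers were lower after THz, 4 of them with every THz library below every control. Their sums were 2204, 2562 and 2409 FPKM after THz, against 3045, 3716 and 2378 FPKM in controls. Of the neuron markers 9 of 10 were lower, 4 of them with every THz library below every control. Their sums were 339 to 355 FPKM after THz, against 364 to 390 FPKM in controls. Moulting markers were lower in 9 of 11 tested cases, 1 of them with every THz library below every control. With the untested bli-1 included, the 12 summed to 88.8 to 124 FPKM after THz. In controls they summed to 165 FPKM in Control 1, 50.05 in Control 2 and 248 in Control 3. Of 9 intestine markers 6 were lower, with overlapping groups for all 9. Their sums ran from 14811 to 16114 FPKM after THz, against 13807 to 17359 FPKM in controls. Of 9 tested sperm markers 4 were lower, 1 of them with every THz library below every control. Over all 12 sperm markers, the untested ones included, sums ran from 26.9 to 35.9 FPKM after THz, against 18.1 to 46.04 FPKM in controls. None of these genes passed the test. The part of tissue or stage in the synthetase levels was not tested.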

How the data were processed

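The values are FPKM per gene and library, made and deposited by the authors. Per the labels' protocols, TRIzol-extracted RNA of whole worms went into TruSeq RNA v2 libraries. Build WBcel235 and the tools DESeq 1.10.1, HTSeq 0.5.4 and STAR are listed, without a role, per the submitters' processing notes. FPKM is scaled within each library, so abundant genes can move a whole library's scale.

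Members were found by gene name. The members, lists and rules were chosen with earlier results of these data known. Genes named in full are those with groups that do not overlap or an unadjusted p under 0.05, the 3 highest and 3 lowest, and the pairs with extreme ratios. Log2(FPKM + 1) was fitted with limma 3.58.1 (R 4.3.3), with a trend of variance on mean and group alone in the model, two-sided, over the 12174 genes that reached 1 FPKM in 3 or more libraries. P-values were Benjamini-Hochberg adjusted over those genes, with calls under 0.05. All 32 synthetase genes passed the filter. No exact permutation test is given, as 3 libraries against 3 allow no p under 0.1. FPKM times length is a whole multiple of 1 step for 88.7% of values above 0 (tolerance 0.05 reads), and for every library in 18 of the 32 genes. Reads recovered in this way served for depth and for voom, on genes with at least 10 reads in 3 libraries. Intervals and counting errors do not cover amplification. The fit was tried on simulated data, with changes far larger than any difference among the synthetase genes and no library standing apart. That trial does not show how the fit does at differences and spreads like those seen here. Positions are those of the deposited table, and overlaps come from the Ensembl annotation of WBcel235, in which 11 of the 32 genes have the same ends. Figures used matplotlib 3.10.9. No protein or promoter sequence was used here.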

Additional observations from a re-analysis of the deposited data

How the results depend on the processing

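The count of 0 synthetase genes called held under every alternative except library weights (10 called). At an unadjusted p under 0.05 there were 0, except 5 after median scaling, 20 with library weights and 0 to 5 when 1 library was left out. Genes with groups that did not overlap numbered 3, with 9 after median scaling (21.7% of all genes), 2 after quantile normalization (14% of all genes) and 3 to 18 without 1 library (18.6% to 35.9% of all genes), where pseudocounts, filters and moderation cannot change the order of libraries. The count of genes higher after THz was 25 after quantile normalization, in which 56.4% of all genes were higher, and 31 after median scaling, in which 62.8% were. The median difference ran from 0.04 to 0.12 for -1 genes and from -0.01 to 0.11 for -2 genes without 1 library. After median scaling it was 0.16 for -1 and 0.15 for -2 genes (0.08 for all genes), with library weights 0.14 and 0.15 (0.02 for all genes), and after quantile normalization 0.05 and 0.07 (0.03 for all genes). The mean log2 ratio of -1 to -2 genes, 1.00 over all libraries, was 1.11 as a median over amino acids and 1.53 with alanine by its description, an alternative added after seeing the data, and 0.99 to 1.02 without 1 library. Among the genes given library by library for their level or lack of overlap, or as the extreme pairs, signs turned for ears-2 (0.0463 after median scaling, 0.0488 after quantile normalization, 0.124 with library weights) and vars-1 (0.0622, 0.0658 and 0.190 in the same settings). Without 1 library, ears-2 ran from -0.115 to 0.0802, vars-1 from -0.140 to 0.0617, dars-2 from -0.0335 to 0.184 and lars-2 from -0.0780 to 0.231. Over all 32 genes 3 signs turned with library weights, 4 after median scaling, 6 after quantile normalization and 1 to 9 without 1 library, with 9 to lower without Control 1. The cause was not tested. The labels do not say whether replicate numbers pair the samples. Deviations of same-numbered THz and control libraries correlated at -0.01, -0.14 and 0.03, and no THz library correlated best with the control of its own number. With 3 libraries a group such correlations cannot settle whether a pairing exists. With the replicate block 0 of the 32 were called and 0 had an unadjusted p under 0.05, against 532 of all genes. With 3 libraries a group, the half-widths of the 95% intervals, which are unadjusted, ran from 0.15 to 0.40 on the log2 scale, and the adjusted test needs larger differences than these.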

Other observations

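Synthetase functions that the naming rule left out were also measured. The gene Y105E8A.20, described as a methionine tRNA ligase, averaged 22.9 ± 2.41 FPKM after THz and 22.6 ± 3.61 FPKM in controls, against 82.2 ± 4.55 FPKM after THz and 78.7 ± 5.70 FPKM in controls for mars-1 (SD, n = 3 each). The table's prx-10 row carries the description of a mitochondrial tryptophan tRNA ligase besides that of a peroxisomal factor, and averaged 14.8 ± 1.08 FPKM after THz and 13.6 ± 2.62 FPKM in controls. For wars-1 the means were 49.4 ± 3.55 FPKM after THz and 48.5 ± 7.38 FPKM in controls.

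No second glutamine name was found. In mammalian mitochondria glutaminyl-tRNA is made by an amidotransferase that converts glutamate on the tRNA. Its subunits A, B and C, by the descriptions of Y41D4A.6, C39B5.6 and Y66D12A.7, averaged 30.2 ± 4.43, 18.8 ± 1.25 and 18.97 ± 1.43 FPKM after THz, and 29.01 ± 1.02, 19.2 ± 1.05 and 16.7 ± 2.27 FPKM in controls. The groups overlapped for all 3. All 3 had Control 2 as the lowest of the controls, at 27.9, 18.03 and 14.6 FPKM.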
